A study of Mus musculus with 13 samples.

Results

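A set of 8 genes of transforming growth factor beta (TGF-beta) signalling and of microglial identity were followed in the mouse cortex: the ligand genes Tgfb1 and Tgfb2, the receptor genes Tgfbr1 and Tgfbr2, the signal transducer gene Smad3, and Sall1, Tmem119 and Olfml3, which mark resident microglia. They were chosen by name, and all 8 were among the 20971 genes of the deposited table. Of them 7 passed the filter on low values and were tested together with 13343 genes in all. RNA was sequenced from the cortex of 7 APPPS1;Apoe-/- mice and 6 APPPS1 mice. Every mouse was 6 months old and of the strain C57BL/6 per the labels. By its label every one also carried the APPPS1 transgenes. These drive mutant human amyloid precursor protein and presenilin 1 in neurons from the Thy1 promoter. By label the groups thus differed in the loss of both copies of Apoe, the gene of the main lipid carrier of the brain. No group labelled as without the transgenes, and none known to be without plaques, was analysed here. Values are RPKM, reads scaled to the length of the gene and to the mapped reads of the library. Values were put on the scale log2(RPKM + 0.5), a change is the APPPS1;Apoe-/- mean less the APPPS1 mean on that scale, and a gene was called where the limma p-value, adjusted over all genes tested, was under 0.05.

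TGF-beta is secreted as a latent complex, in which the cytokine stays bound to its own propeptide and to an anchoring protein, and integrins release it. The active ligand binds the type II receptor encoded by Tgfbr2, which then phosphorylates the type I receptor encoded by Tgfbr1, and Smad2 and Smad3 carry the signal to the nucleus with Smad4. Microglia need this signal to keep the expression profile that sets them apart from other macrophages, of which Sall1, Tmem119 and Olfml3 are part.

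Apoe had 4.01 to 6.35 RPKM in the APPPS1;Apoe-/- libraries, against 463 to 670 RPKM in the APPPS1 libraries. Replicates 2 and 5 of the APPPS1;Apoe-/- group had App at 106 and 116 RPKM, under the 150 RPKM used to set libraries apart. The other 11 libraries had App at 176 to 217 RPKM, so results are given with and without replicates 2 and 5. Thy1, the gene whose promoter drives the transgenes, was also low in these 2, at 52.2 and 56.9 RPKM. In the other 11 it had 172 to 245 RPKM. Whether these 2 mice carried the transgenes was not tested. Alignments ran from 18455493 to 34538031 in the APPPS1;Apoe-/- libraries and from 28402328 to 77005806 in the APPPS1 libraries, so values of weak genes are less precise in APPPS1;Apoe-/- libraries. Of the 13343 genes tested, 633 (4.74%) were lower and 465 (3.48%) higher, 8.23% together, and with every library shifted to the same median 531 were lower and 701 higher. Without the libraries with low App 3.3% were lower and 1.78% higher, 5.07% together. In a model that also held sequencing depth (log2 of the alignments, called the depth term here) 1.51% were called.

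Among the 7 tested genes Tgfbr2 and Olfml3 fell and the other 5 did not pass the test. The 2 of 7 that fell compare with 4.74% of all tested genes that were lower. Without the 2 libraries with low App they were again 2 of 7, beside 3.3%. With the depth term 1 of 7 fell beside 0.989%, and with both changes 2 of 7 beside 1.48%. Tgfbr2 and Olfml3 were also the 2 members for which each APPPS1;Apoe-/- library lay below each APPPS1 library, which held in this direction for 2.17% of all tested genes, and for 2.84% without the libraries with low App. In the APPPS1 libraries Olfml3 was the most abundant of the set at 52.4 ± 3.58 RPKM (SD, n = 6), followed by Tmem119, Smad3, Tgfbr1, Sall1, Tgfbr2 and Tgfb2, with Tgfb1 near 0. The ranges over APPPS1 libraries overlapped between the neighbours Tmem119 and Smad3, between Sall1 and Tgfbr2 and between Tgfbr2 and Tgfb2, so the spread over libraries did not separate these neighbours. Within the libraries Tgfbr2 was above Tgfb2 in 6 of 6. In the APPPS1;Apoe-/- libraries Tgfb2 averaged above Tgfbr2, at 1.63 ± 0.230 and 1.31 ± 0.302 RPKM (SD, n = 7), again with overlapping ranges.

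**Figure D1:**
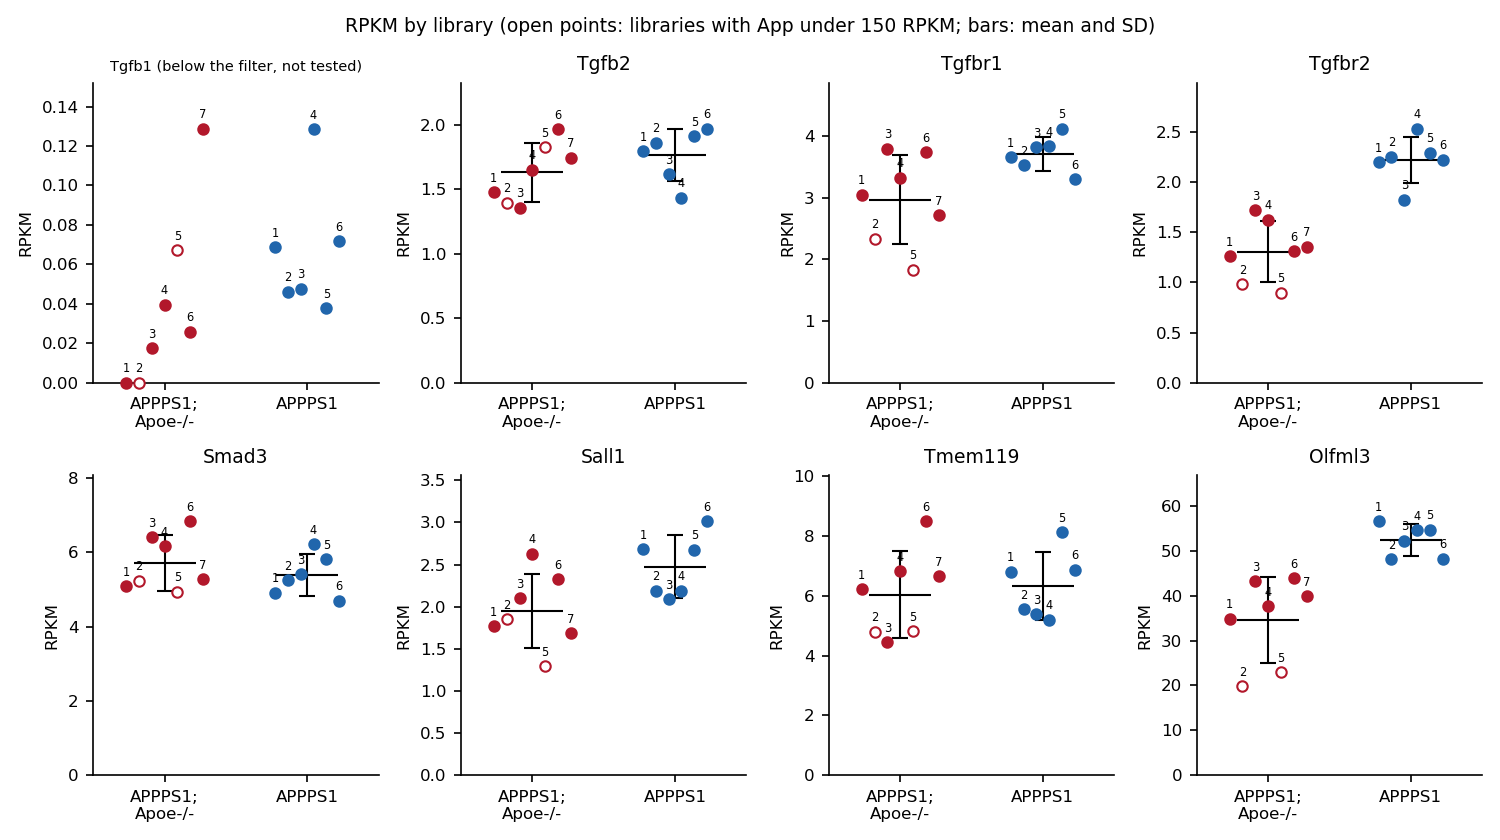
RPKM of the 8 genes in each library (points, labelled with the replicate number), with APPPS1;Apoe-/- left and APPPS1 right. Open points are the 2 libraries with App under 150 RPKM, and long bars mark group means and whiskers 1 SD (n = 7 and n = 6, not drawn for Tgfb1). Tgfbr2 and Olfml3 separate the groups, with Tgfbr2 at most 1.72 RPKM in APPPS1;Apoe-/- and at least 1.82 RPKM in APPPS1.

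The ligand genes among the 8 were weakly expressed. Tgfb1 encodes the TGF-beta isoform that microglia themselves make. It lies on chromosome 7 (mm10 25687002 to 25705077, plus strand), 5.99 Mb from Apoe. In the APPPS1;Apoe-/- libraries it was listed at 0 in replicates 1 and 2, and at 0.0175, 0.0395, 0.0671, 0.0258 and 0.129 RPKM in replicates 3 to 7. In the APPPS1 libraries it was at 0.0687, 0.0462, 0.0477, 0.129, 0.0379 and 0.0719 RPKM in replicates 1 to 6. The groups overlapped, and with values so close to 0 no fold change is given. The gene missed the filter, a mean of 0.5 RPKM, and no difference was detectable. Whether the low level reflects the tissue or the gene models and counting behind the table cannot be seen from these values, so they are not read as absence of the transcript. Its neighbours on the chromosome were well above the filter, B9d2 at 22.6 to 34.9 RPKM over all libraries and Ccdc97 at 6.43 to 10.5 RPKM. No annotated gene overlapped Tgfb1.

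Tgfb2, which encodes an isoform also made by neurons and astrocytes, lies on chromosome 1 (mm10 186622792 to 186705989, minus strand). Its values ran from 1.36 to 1.96 RPKM with a median of 1.65 in the APPPS1;Apoe-/- libraries, and from 1.43 to 1.97 RPKM with a median of 1.83 in the APPPS1 libraries. The ranges nearly coincided. On the log2 scale Tgfb2 differed by -0.09 ± 0.08 (SE, adjusted p = 0.538), with a 95% interval from -0.26 to 0.08, and by -0.08 without the libraries with low App (adjusted p = 0.633). An antisense gene model shares 124 of its 5791 exonic bases, and the use of strand in counting is not given in the sources used here. Tgfb3, the remaining isoform, was more abundant than Tgfb2 per length, at 5.78 ± 0.320 RPKM in the APPPS1;Apoe-/- libraries and 5.20 ± 0.473 RPKM in the APPPS1 libraries (SD, n = 7 and n = 6), a difference that missed the threshold (adjusted p = 0.152).

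The type II receptor gene Tgfbr2 fell. The gene lies on chromosome 9 (mm10 116084293 to 116175360, minus strand), and is expressed by microglia and by endothelial cells of the brain. It ran from 0.899 to 1.72 RPKM with a median of 1.31 in the APPPS1;Apoe-/- libraries, and from 1.82 to 2.53 RPKM with a median of 2.23 in the APPPS1 libraries. Replicates 5 and 2, the libraries with low App, were lowest at 0.899 and 0.980 RPKM, yet the other 5 of that genotype, at 1.26 to 1.72 RPKM, also lay below the APPPS1 range. Its log2 change was -0.60 ± 0.10 (SE, 95% interval -0.82 to -0.38, adjusted p = 0.00285). Without the libraries with low App it was -0.48 ± 0.08 (adjusted p = 0.00460). The call also held with the depth term, over 13 libraries (-0.59, adjusted p = 0.0458) and without the 2 libraries (-0.54, adjusted p = 0.0150).

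The sequence before the start of Tgfbr2 is shown because this gene fell in both sets of libraries. It is the 250 bases up to the RefSeq start, chr9:116175364-116175613 on the minus strand of GRCm38.p6, printed 5′ to 3′ with capitals for the SMAD-binding motif CAGAC and the PU.1 core GAGGAA on either strand.
Tgfbr2: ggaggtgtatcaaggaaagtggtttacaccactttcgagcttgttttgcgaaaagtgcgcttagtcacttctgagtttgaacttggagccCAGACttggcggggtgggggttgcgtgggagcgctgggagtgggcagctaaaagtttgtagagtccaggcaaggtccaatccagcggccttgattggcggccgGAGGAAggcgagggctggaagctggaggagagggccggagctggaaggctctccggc
One CAGAC starts 160 bases before the start and one GAGGAA 57 bases before it, and they do not overlap. Over the 32851 RefSeq promoter windows of this length, 42.2% hold CAGAC and 23.3% hold GAGGAA on either strand, so a match by itself is common. RefSeq windows were found for 7 of the 8 genes, Tmem119 not being among them. Both motifs also occurred before Tgfb2 and before RefSeq start 2 of Tgfbr1, and neither gene was called. CAGAC also occurred before RefSeq start 1 of Sall1, likewise not called.

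The type I receptor gene Tgfbr1, on chromosome 4 (mm10 47353222 to 47414931, plus strand), did not pass the test. It ran from 1.83 to 3.80 RPKM with a median of 3.05 in the APPPS1;Apoe-/- libraries, and from 3.30 to 4.12 RPKM with a median of 3.74 in the APPPS1 libraries. Replicates 5 and 2 were lowest again at 1.83 and 2.34 RPKM, and replicates 3, 4 and 6, at 3.32 to 3.80 RPKM, lay inside the APPPS1 range. For Tgfbr1 the log2 change was -0.31 ± 0.12 (SE, 95% interval -0.56 to -0.05, adjusted p = 0.129). With those 2 libraries left out it was -0.14 ± 0.08 (95% interval -0.32 to 0.03, adjusted p = 0.334), smaller by more than 1.5 times.

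Both receptor genes were compared with each other inside each library. The difference Tgfbr2 minus Tgfbr1 in log2(RPKM + 0.5) averaged -0.93 ± 0.16 in the APPPS1;Apoe-/- libraries and -0.63 ± 0.16 in the APPPS1 libraries (SD, n = 7 and n = 6). The genotypes differed by -0.30 (two-sided exact permutation p = 0.00699 over 1716 splits, adjusted p = 0.0166 over 3 such comparisons), so the change of Tgfbr2 was the larger one. In the 11 libraries with higher App the difference was -0.33 (exact permutation p = 0.0108, adjusted p = 0.0325). The ranges overlapped, since APPPS1 replicate 3 stood at -0.89 and APPPS1;Apoe-/- replicate 5 at -0.74. These comparisons were chosen with the values known.

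Smad3, whose product is phosphorylated by the active receptor, lies on chromosome 9 (mm10 63646767 to 63757994, minus strand). It ran from 4.94 to 6.85 RPKM with a median of 5.27 in the APPPS1;Apoe-/- libraries, and from 4.70 to 6.22 RPKM with a median of 5.33 in the APPPS1 libraries. The groups overlapped over most of their ranges, and replicates 2 and 5, at 5.23 and 4.94 RPKM, lay within the APPPS1 range. The change of Smad3 on the log2 scale was 0.07 ± 0.08 (SE, 95% interval -0.10 to 0.25, adjusted p = 0.621), and 0.13 without the libraries with low App (adjusted p = 0.410).

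Sall1, a zinc finger transcription factor gene needed for microglial identity, lies on chromosome 8 (mm10 89027235 to 89044162, minus strand). It ran from 1.29 to 2.63 RPKM with a median of 1.85 in the APPPS1;Apoe-/- libraries, and from 2.09 to 3.02 RPKM with a median of 2.43 in the APPPS1 libraries. Replicate 5 was lowest, and replicates 3, 4 and 6, at 2.10, 2.63 and 2.33 RPKM, lay inside the APPPS1 range. For Sall1 the log2 change was -0.29 ± 0.11 (SE, 95% interval -0.53 to -0.05, adjusted p = 0.128), and -0.20 without the libraries with low App (adjusted p = 0.316). Without APPPS1;Apoe-/- replicate 4 it was -0.35 and passed the threshold (adjusted p = 0.0461).

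Tmem119, which encodes a membrane protein used as a microglial marker, lies on chromosome 5 (mm10 113793729 to 113800516, minus strand). It ran from 4.46 to 8.51 RPKM with a median of 6.22 in the APPPS1;Apoe-/- libraries, and from 5.20 to 8.14 RPKM with a median of 6.18 in the APPPS1 libraries. The medians nearly coincided, and the highest value of all came from APPPS1;Apoe-/- replicate 6. Tmem119 differed by -0.08 ± 0.14 on the log2 scale (SE, adjusted p = 0.776), and the 95% interval from -0.36 to 0.21 leaves room for a moderate fall. Without the libraries with low App the sign turned, at 0.03 ± 0.14 (adjusted p = 0.925). Replicates 2 and 5 stood at 4.79 and 4.81 RPKM, and replicate 3, with App at 197 RPKM, at 4.46 RPKM.

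Olfml3 fell. It encodes a secreted olfactomedin-like protein and lies on chromosome 3 (mm10 103722222 to 103738001, minus strand). It ran from 19.7 to 43.9 RPKM with a median of 37.7 in the APPPS1;Apoe-/- libraries, and from 48.1 to 56.7 RPKM with a median of 53.4 in the APPPS1 libraries. Replicates 2 and 5 were far below the rest at 19.7 and 22.9 RPKM, and the other 5, at 34.8 to 43.9 RPKM, were also below the APPPS1 range. Its log2 change was -0.65 ± 0.16 (SE, 95% interval -0.98 to -0.31, adjusted p = 0.0213). With the 2 libraries of low App left out it was -0.39 ± 0.07 (95% interval -0.54 to -0.25, adjusted p = 0.00401), smaller by more than 1.5 times and more precise. With the depth term the call ended over 13 libraries (-0.54, adjusted p = 0.187) and held without the 2 libraries (-0.39, adjusted p = 0.0326).

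The 250 bases before the RefSeq start of Olfml3 are shown beside those of Tgfbr2 because it is the other gene of the set that fell. They lie at chr3:103738002-103738251 on the minus strand of GRCm38.p6, and neither CAGAC nor GAGGAA occurs in them on either strand, so no base is in capitals.
Olfml3: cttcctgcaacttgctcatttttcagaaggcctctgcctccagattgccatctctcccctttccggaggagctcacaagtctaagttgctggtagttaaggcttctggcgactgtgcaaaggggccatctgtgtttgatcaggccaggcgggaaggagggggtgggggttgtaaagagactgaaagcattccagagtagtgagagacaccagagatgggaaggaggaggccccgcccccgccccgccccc
The absence of these letters from this window says nothing about binding elsewhere.

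**Figure D2:**
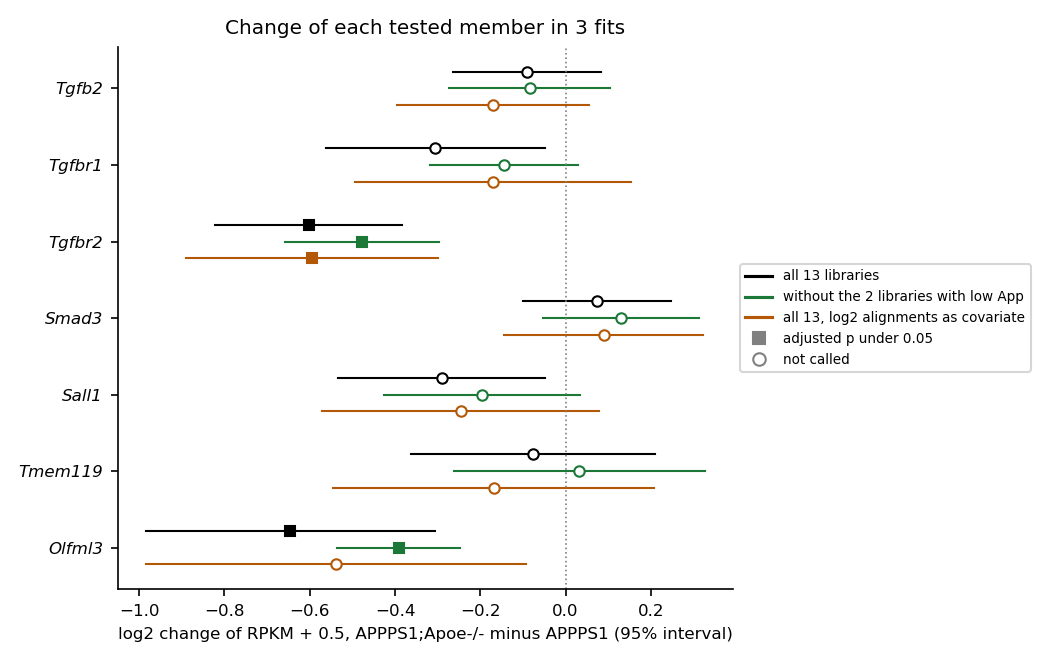
Change of log2(RPKM + 0.5), APPPS1;Apoe-/- minus APPPS1, for the 7 tested genes on the horizontal axis with 95% intervals, in 3 fits by colour. Filled squares passed an adjusted p of 0.05 and open circles did not. Tgfbr2 is filled in each of the 3 fits, and Olfml3 in the fit to all 13 libraries (-0.65) and the fit without the 2 libraries with low App (-0.39).

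Olfml3 was compared with the other identity genes inside each library. These pairs too were chosen with the values known, which the p-values do not account for. The difference Olfml3 minus Tmem119 in log2(RPKM + 0.5) averaged 2.40 ± 0.38 in the APPPS1;Apoe-/- libraries and 2.97 ± 0.24 in the APPPS1 libraries (SD, n = 7 and n = 6). The genotypes differed by -0.57 (two-sided exact permutation p = 0.0111, adjusted p = 0.0166 over the 3 comparisons). Without the libraries with low App they differed by -0.42 (exact permutation p = 0.0433) and the adjusted p of 0.0649 missed the threshold. For Olfml3 minus Sall1 the averages were 3.81 ± 0.37 in APPPS1;Apoe-/- and 4.16 ± 0.21 in APPPS1 (SD, n = 7 and n = 6), a difference of -0.35 that did not pass (exact permutation p = 0.0513, adjusted p = 0.0513), and -0.19 without the libraries with low App (exact permutation p = 0.165).

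Genes that mark microglia in any state moved with these results. Of 24 tested pan-microglia genes 16 were lower and 0 higher, with a median log2 change of -0.61, against -0.01 over all genes tested, of which 4.74% were lower. With the depth term 3 of the 24 were lower, beside 0.989% of all tested genes, while the list median was -0.57. When the libraries with low App were also left out 12 were lower, beside 1.48% (list median -0.46). Their summed level over the 26 genes in the table was 514 to 1021 RPKM in the APPPS1;Apoe-/- libraries and 1244 to 1477 RPKM in the APPPS1 libraries, and 923 to 1021 RPKM in APPPS1;Apoe-/- without the libraries with low App. In cortex as a whole, fewer microglia and less RNA per microglia cannot be told apart, and the part of either in the falls of Tgfbr2 and Olfml3 was not tested. The mean log2 value of the 24 genes was 3.38 and 3.49 in APPPS1;Apoe-/- replicates 2 and 5, 4.06 to 4.24 in the other 5 and 4.48 to 4.69 in the APPPS1 libraries.

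Members expressed by microglia stood differently against that mean. Measured from it in each library, Olfml3 averaged 1.13 ± 0.14 in the APPPS1;Apoe-/- libraries and 1.17 ± 0.08 in the APPPS1 libraries, and Tgfbr2 -3.11 ± 0.18 in APPPS1;Apoe-/- and -3.11 ± 0.11 in APPPS1 (SD, n = 7 and n = 6). On this scale the distance of these 2 genes from the mean differed little between genotypes. Without the libraries with low App the genotypes differed by 0.01 for Olfml3 and -0.08 for Tgfbr2. The log2 change of Tgfbr2 itself depended on the added constant, at -0.74 with 0.1 and -0.49 with 1 in place of 0.5. That of Olfml3 was -0.65 and -0.64. Against the same mean Tmem119 averaged -1.27 ± 0.30 in APPPS1;Apoe-/- and -1.80 ± 0.19 in APPPS1 libraries, and Sall1 -2.67 ± 0.27 in APPPS1;Apoe-/- and -2.99 ± 0.17 in APPPS1. Both were higher against it in the APPPS1;Apoe-/- libraries, Tmem119 by 0.53 and Sall1 by 0.31, and by 0.43 and 0.20 without the libraries with low App. The mean itself differed by -0.61 between genotypes (-0.40 without those libraries), so a gene that did not change rises against it. Tgfbr1, Tgfb2 and Smad3 were higher against it too, by 0.30, 0.52 and 0.68 over all 13 libraries. These differences were not tested.

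**Figure D3:**
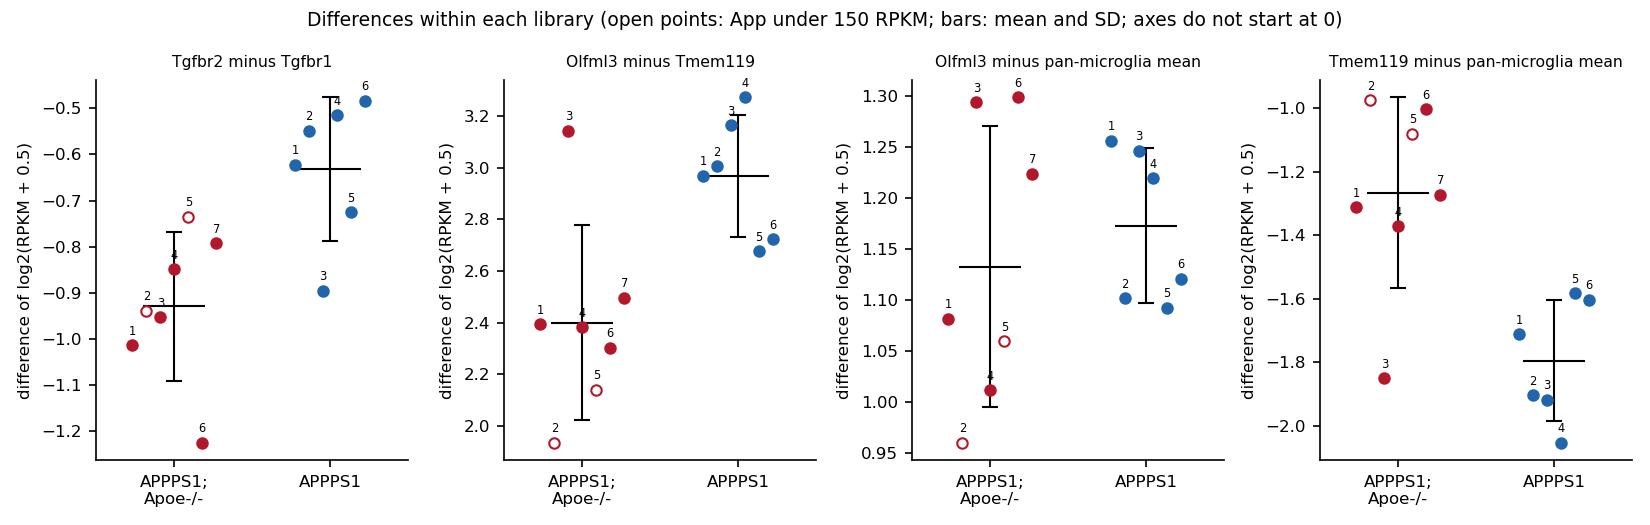
Differences of log2(RPKM + 0.5) inside each library (points with the replicate number) for Tgfbr2 minus Tgfbr1, Olfml3 minus Tmem119, and Olfml3 and Tmem119 minus the mean of 24 pan-microglia genes. APPPS1;Apoe-/- is left and APPPS1 right, open points are the libraries with low App, and long bars mark means and whiskers 1 SD (n = 7 and n = 6). The groups mix for Olfml3 against the pan-microglia mean, while Tmem119 against it lies between -1.85 and -0.98 in APPPS1;Apoe-/- and between -2.05 and -1.58 in APPPS1.

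Other homeostatic genes of microglia were lower beside Olfml3. Of 28 identity genes other than the 8, 15 were lower, 0 higher and 13 did not pass, beside 4.74% of all tested genes lower. Their median log2 change was -0.39, and without the libraries with low App 12 were lower, beside 3.3% (median -0.30). Gpr34, a lysophospholipid receptor gene, was at 17.9 ± 4.38 RPKM in APPPS1;Apoe-/- and 31.1 ± 4.19 RPKM in APPPS1 (SD, n = 7 and n = 6, as for each pair of groups from here on). Pros1, whose product bridges dying cells to phagocytes, was at 3.96 ± 0.581 RPKM in APPPS1;Apoe-/- and 5.47 ± 0.222 RPKM in APPPS1 libraries. The log2 changes were -0.81 for Gpr34 (adjusted p = 0.00419) and -0.43 for Pros1 (adjusted p = 0.00421). In both, each APPPS1;Apoe-/- library lay below each APPPS1 library, as for 2.17% of all tested genes. Among 30 disease-associated microglia genes, Apoe itself included, 26 were lower and 0 higher (median -0.83). Without the libraries with low App 24 of the 30 were lower (median -0.65). With the depth term over 13 libraries 11 were lower, beside 0.989% of all tested genes.

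Further identity genes that fell were P2ry6, Csf1r, Siglech, Cx3cr1, Fcrls and Gas6, with log2 changes of -0.48, -0.47, -0.51, -0.51, -0.61 and -0.20. Of these Gas6 missed the threshold without the libraries with low App (adjusted p = 0.125). Csf1r, the receptor for the survival factors of microglia, stood at 25.3 ± 4.53 RPKM in the APPPS1;Apoe-/- libraries and 34.9 ± 4.26 RPKM in the APPPS1 libraries. P2ry12, a nucleotide receptor of resting microglia, had 40.1 ± 7.03 RPKM in APPPS1;Apoe-/- and 48.4 ± 3.31 RPKM in APPPS1 and missed the threshold (-0.29, adjusted p = 0.0927), and Mertk, an engulfment receptor gene that astrocytes share, was at 9.87 ± 1.32 RPKM in APPPS1;Apoe-/- and 7.86 ± 1.41 RPKM in APPPS1 (0.32, adjusted p = 0.0766). With the depth term 0 of the 28 identity genes passed limma over 13 libraries (18 had an unadjusted p under 0.05). When the libraries with low App were also left out 5 were lower, beside 1.48% of all tested genes.

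Of 11 tested transcription factor genes of microglial identity beside Sall1, Irf8 was lower and 10 did not pass. Over all tested genes 4.74% were lower. Irf8, which directs the microglial lineage, ran from 0.944 to 1.68 RPKM in the APPPS1;Apoe-/- libraries and from 2.19 to 3.66 RPKM in the APPPS1 libraries (log2 change -0.89, adjusted p = 1.34e-04). Mef2c, which neurons also express, stood at 123 ± 8.76 RPKM in APPPS1;Apoe-/- and 116 ± 12.1 RPKM in APPPS1 (0.09, adjusted p = 0.415). Spi1, which encodes PU.1, ran from 0 to 0.366 RPKM in APPPS1;Apoe-/- and from 0.144 to 0.907 RPKM in APPPS1, and was not tested.

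Genes of the TGF-beta pathway beyond the 8 were called in both directions. Of 91 other pathway genes 69 were tested. Lower values were called for 5 and higher ones for 3, and 61 missed the threshold, with a median log2 change of -0.02. The 8 called among 69 stand beside the 8.23% called among all genes, and nothing is read from that share. Without the libraries with low App 2 were lower (Acvr1 and Itgb5) and 1 was higher (Cdkn1a), and with the depth term limma called 0 (13 had an unadjusted p under 0.05).

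Of the 6 tested ligand and latency genes limma called 0, with 2 at an unadjusted p under 0.05. Nrros, which anchors latent TGF-beta on microglia, was at 2.24 ± 0.320 RPKM in the APPPS1;Apoe-/- libraries and 2.22 ± 0.320 RPKM in the APPPS1 libraries (adjusted p = 0.951). Lrrc32, its relative, was at 0.557 ± 0.185 RPKM in APPPS1;Apoe-/- and 0.518 ± 0.153 RPKM in APPPS1 (adjusted p = 0.850). Ltbp1 was at 1.31 ± 0.250 RPKM in APPPS1;Apoe-/- and 1.42 ± 0.0244 RPKM in APPPS1 (adjusted p = 0.550), and Ltbp3 at 0.760 ± 0.101 RPKM in APPPS1;Apoe-/- and 0.986 ± 0.143 RPKM in APPPS1 (adjusted p = 0.0779). Both products hold the latent complex in the matrix. Among 7 tested activator genes Itgb5, an integrin subunit gene, was lower at 3.34 ± 0.714 RPKM in APPPS1;Apoe-/- and 4.58 ± 0.399 RPKM in APPPS1 (log2 change -0.43, adjusted p = 0.0282). Itgav and Itgb8, which form the integrin that frees TGF-beta in the brain, differed by -0.02 and -0.05 (adjusted p = 0.876 and 0.762).

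Of 11 other receptor genes Acvr1, a type I receptor gene of the bone morphogenetic protein branch, was lower at 3.26 ± 0.273 RPKM in the APPPS1;Apoe-/- libraries and 3.99 ± 0.241 RPKM in the APPPS1 libraries (log2 change -0.26, adjusted p = 0.0154). The co-receptor genes Tgfbr3 and Eng did not pass (adjusted p = 0.917 and 0.401). Of 10 tested Smad and partner genes limma called 0, with 0 at an unadjusted p under 0.05. Smad2 was at 2.86 ± 0.227 RPKM in APPPS1;Apoe-/- and 2.78 ± 0.277 RPKM in APPPS1, and Smad4 at 5.02 ± 0.316 RPKM in APPPS1;Apoe-/- and 5.20 ± 0.197 RPKM in APPPS1 (adjusted p = 0.769 and 0.610).

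Among 14 tested inhibitor genes 1 was lower and 1 higher. Tgif1, a co-repressor of Smads, was at 0.628 ± 0.147 RPKM in the APPPS1;Apoe-/- libraries and 0.935 ± 0.132 RPKM in the APPPS1 libraries (adjusted p = 0.0313), and Htra1, a secreted protease gene also expressed by astrocytes, at 19.1 ± 4.09 RPKM in APPPS1;Apoe-/- and 13.6 ± 2.68 RPKM in APPPS1 (adjusted p = 0.0402). Both missed the threshold without the libraries with low App (adjusted p = 0.107 and 0.109). The feedback inhibitor genes Smad7, Ski, Skil and Pmepa1, whose products restrain Smad signalling, differed by -0.05, -0.04, 0.10 and 0.02 (adjusted p = 0.771, 0.788, 0.340 and 0.833). Of 6 tested related ligand genes Gdf1 was lower, at 1.55 ± 0.280 RPKM in APPPS1;Apoe-/- and 2.12 ± 0.307 RPKM in APPPS1, and Inhba, which encodes an activin subunit, higher, at 4.46 ± 0.383 RPKM in APPPS1;Apoe-/- and 3.48 ± 0.659 RPKM in APPPS1 (adjusted p = 0.0344 and 0.0481). Neither passed without the libraries with low App (adjusted p = 0.103 and 0.0502).

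Of 19 tested TGF-beta target genes 2 were lower and 1 higher, with a median log2 change of 0.07. Timp1, a protease inhibitor gene of reactive glia, was at 0.545 ± 0.208 RPKM in APPPS1;Apoe-/- and 1.03 ± 0.331 RPKM in APPPS1 (adjusted p = 0.0319, and 0.101 without the libraries with low App), and Tgif1 is counted here too. Cdkn1a, a cell cycle inhibitor gene that many signals other than TGF-beta induce, was higher at 14.6 ± 2.13 RPKM in the APPPS1;Apoe-/- libraries and 8.63 ± 2.82 RPKM in the APPPS1 libraries (log2 change 0.77, adjusted p = 0.00684). It was also higher without the libraries with low App (0.82, adjusted p = 0.0147).

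**Figure D4:**
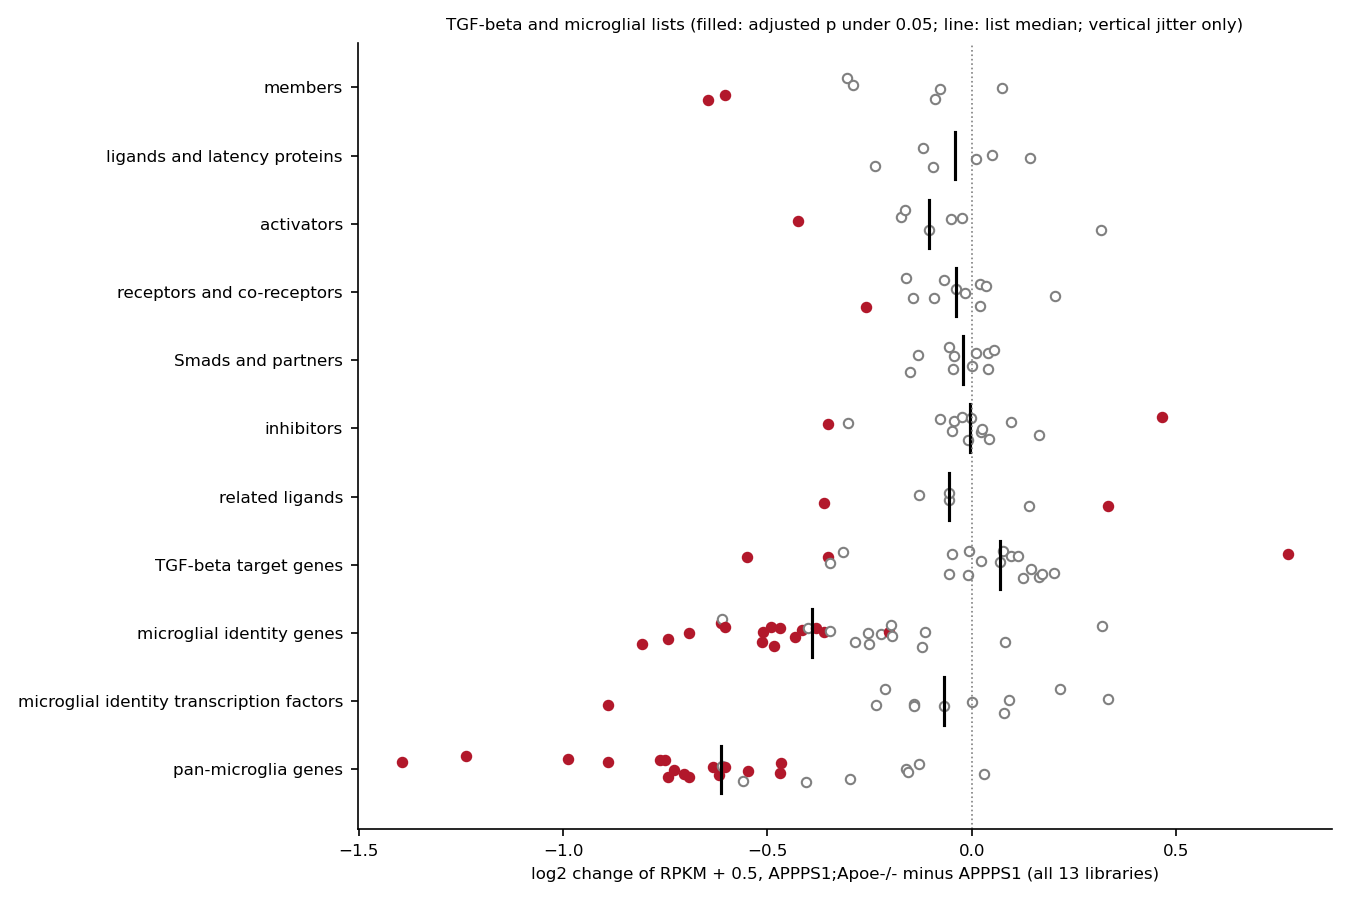
Change of log2(RPKM + 0.5), APPPS1;Apoe-/- minus APPPS1 over all 13 libraries, of each tested gene (points) by list. Filled points passed an adjusted p of 0.05 and lines are list medians, not drawn for the 7 tested members (vertical scatter within a list carries no value). The TGF-beta lists lie around 0, with medians from -0.11 for activators to 0.07 for target genes, while the microglial identity genes (-0.39) and pan-microglia genes (-0.61) lie to the left.

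Other cells that express members were followed by their markers. The counts here and in the next paragraph stand beside 4.74% of all tested genes lower and 3.48% higher. Without the libraries with low App these shares were 3.3% and 1.78%, and with the depth term 1.51% were called in either direction. Of 15 endothelial markers Kdr was lower and Slc2a1 and Ly6c1 were higher, with a median log2 change of -0.07 (0.04 without the libraries with low App) and a summed level of 123 to 153 RPKM in the APPPS1;Apoe-/- libraries and 95.2 to 130 RPKM in the APPPS1 libraries. Cldn5 was at 6.18 ± 1.28 RPKM in APPPS1;Apoe-/- and 8.65 ± 1.90 RPKM in APPPS1 (adjusted p = 0.0567). With the low-App libraries left out Cldn5 was lower (-0.58, adjusted p = 0.0223) and Kdr missed the threshold (adjusted p = 0.0764), and with the depth term limma called 0 of the 15 (5 had an unadjusted p under 0.05). Of 9 tested pericyte and fibroblast markers limma called 0, with 1 at an unadjusted p under 0.05. Their part in the fall of Tgfbr2 was not tested.

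Perivascular macrophage markers were near the filter. Of 11 such genes 6 were tested, Dab2 being lower and Stab1 higher, and their sum was 7.90 to 11.8 RPKM in the APPPS1;Apoe-/- libraries and 8.92 to 12.6 RPKM in the APPPS1 libraries. The defining marker Mrc1 was at 0.444 ± 0.0923 RPKM in APPPS1;Apoe-/- and 0.422 ± 0.0768 RPKM in APPPS1. Of 14 astrocyte markers Aqp4, Gfap and Sox9 were lower and Gjb6 higher (median 0.02), and of 14 neuron markers Slc17a7 was lower (median -0.04, summed level 3690 to 4525 RPKM in APPPS1;Apoe-/- and 3702 to 4297 RPKM in APPPS1 libraries). Of 12 blood leukocyte markers 3 were tested and Cd4 was higher. Of 10 oligodendrocyte markers 4 were higher and 0 lower (median 0.27), and of 12 striatal markers 2 were higher and 0 lower (median 0.42). Over all tested genes 3.48% were higher. The striatal markers summed to 453 to 945 RPKM in the APPPS1;Apoe-/- libraries and 350 to 838 RPKM in the APPPS1 libraries. With the 2 libraries left out, Gfap remained lower among the astrocyte markers and Mal higher among the oligodendrocyte markers, and limma called 0 neuron, 0 leukocyte and 0 striatal markers (2, 2 and 4 had an unadjusted p under 0.05, striatal median 0.28). With the depth term 0 astrocyte, 0 neuron and 0 oligodendrocyte markers passed limma over 13 libraries (5, 1 and 5 at an unadjusted p under 0.05), while Cd4 and 3 striatal markers were higher. The part of these markers in the values of the 8 genes was not tested.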

How the data were processed

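The authors deposited 1 table of RPKM values per gene for 13 libraries of flash-frozen cortex and the count of alignments of each. Per the submitters' processing notes the tools included Partek and the genome was mm10. Aligner, counting rule, use of strand and annotation: not given in the sources used here. The reads behind each RPKM value are unknown, so no counting interval is given. Genotypes in the table and in the labels were the same for 13 of 13 libraries, and none of the 78 pairs of libraries was identical (smallest median absolute log2 difference 0.0969). Per the series' design the libraries are separate mice.

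After the transformation log2(RPKM + 0.5), which understates changes of weak genes, the 13343 genes averaging 0.5 RPKM or more were fitted with limma 3.58.1 in R 4.3.3 (eBayes with trend, genotype alone, two-sided, Benjamini-Hochberg over all tested genes). On simulated data of this comparison (13343 genes) the fit called 88.1% of log2 changes of 0.5, 100% of those of 1 and 98.5% of those of 2. Differences between 2 genes were tested by exact permutation of the libraries. Alternatives left out the libraries with App under 150 RPKM (a bound chosen with App values known), added a depth term or a sex score (Xist against Y-linked genes), or changed the pseudocount, filter, scaling or weights, or left out 1 library. The 8 genes, all lists, and the differences between 2 genes were chosen with earlier results of these data known. Named genes are the 8, up to 4 called genes of each list by adjusted p, and a further set chosen with the lists. Not all of them are described. Positions come from GENCODE vM21, promoters from RefSeq on GRCm38.p6. Scripts used Python 3.11.15 with pandas 2.3.3, scipy 1.17.1, numpy 2.4.6 and matplotlib 3.10.9.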

Additional observations from a re-analysis of the deposited data

Results flagged for a closer look

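Tgfb1 in APPPS1 replicate 4, at 0.129 RPKM, stood apart from the other 5 APPPS1 libraries by Dixon's criterion, which chance meets in about 1 of 20 groups. In all 16 groups were checked, the 8 genes in each genotype. The value is far below the filter of 0.5 RPKM.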

How the results depend on the processing

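The fall of Tgfbr2 kept its call in all 25 alternatives, between -0.74 and -0.48. The fall of Olfml3 kept it in 23 and lost it without the filter on low values (-0.65, adjusted p = 0.0617) and with the depth term (-0.54, adjusted p = 0.187). Tgfb2, Tgfbr1 and Smad3 stayed uncalled with the same sign in 25 alternatives each. Tmem119 turned to 0.033 without the libraries with low App and Sall1 passed without APPPS1;Apoe-/- replicate 4 (-0.35). Members called numbered 1 without the filter and 1 with the depth term, and 2 to 3 when 1 library was left out. Calls over all genes numbered 202 with the depth term, 677 without the libraries with low App, 281 with both, and 711 (without APPPS1 replicate 6) to 1594 (without APPPS1;Apoe-/- replicate 4) when 1 library was left out, against 1098. Other pathway genes called numbered 5 without the filter, 0 with the depth term, 3 without the libraries with low App, 0 with both, and 2 (without APPPS1;Apoe-/- replicate 2) to 8 when 1 library was left out, against 8. Identity genes and factors called numbered 9 without the filter, 1 with the depth term, 6 with both, and 11 to 20 with 1 library left out, against 16. The difference Olfml3 minus Sall1 was -0.39 with a pseudocount of 1 (exact permutation p = 0.0280), and -0.43 to -0.24 with 1 library left out. Its unadjusted p was also under 0.05 without APPPS1;Apoe-/- replicate 3, APPPS1;Apoe-/- replicate 7 or APPPS1 replicate 6 (exact permutation p = 0.0476, 0.0238 and 0.0227). The other 2 differences kept their side of an unadjusted 0.05 in 16 alternatives each. The cause of these changes was not tested. No paired analysis was possible because the labels carry no replicate numbers, those used here being given in accession order within each genotype. In the fit to all 13 libraries Tgfb1 and Spi1 lie below the filter and were not tested.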

Other observations

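The genes most like each of the 7 tested genes were sought among those with a mean of at least 2 RPKM, by Pearson's r of the deviations from the group mean over the 11 libraries with App of at least 150 RPKM. With so few libraries and 9841 or 9842 candidates the highest r is large by construction, and the names are a description. Tmem119 was most like Selplg (r = 0.96), another microglial gene, which lies 18 kb from it on chromosome 5, on the same strand, and had a median of 8.48 RPKM in the APPPS1;Apoe-/- libraries and 10.4 RPKM in the APPPS1 libraries (adjusted p = 0.0517). Tgfbr1 was most like Adam17 (0.94), which encodes a shedding protease, Sall1 most like Nup210 (0.93), Smad3 most like Dpp8 (0.93), Olfml3 most like Ippk (0.90), Tgfb2 most like Lrig1 (0.90) and Tgfbr2 most like Pom121 (0.88).

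Within the set, the same measure was 0.84 for Tgfbr1 and Smad3 and 0.85 for Tgfb2 and Tmem119. It was 0.30 for Tgfbr1 and Tgfbr2, 0.08 for Tmem119 and Olfml3 and 0.24 for Tgfbr2 and Olfml3. These are descriptions over 11 libraries that share the table's scaling, and no test was made.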
